A study of Mus musculus with 6 samples.

Results

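The nuclear genes of mitochondrial respiratory complexes I, II, III and V were described in pro-B cells, an early stage of B cell development. Members were the genes whose array probe sets carry 1 annotated symbol starting with Nduf, Uqcr or Atp5, or equal to Sdha, Sdhb, Sdhc or Sdhd. This gave 70 genes of the 17097 measured on the array, read by 119 probe sets, and the brightest probe set by mean over 6 arrays stood for each gene. By role they were 6 core and 26 accessory subunits of complex I, 7 assembly factors of complex I, 4 genes of complex II, 7 of complex III and 17 of complex V. Ndufa4 and Ndufa4l2 and the pseudogene Ndufs5-ps match the name rule and are given apart. The samples were sorted B220+CD43+IgM- cells of mouse, on 3 arrays of wild-type mice and 3 arrays of mice described as HDAC7 deficient and, in the design text, as HDAC7 conditional. The strain, age and sex of the mice, the Cre line and the number of animals behind each sample are not given in the labels. The arrays are described as biological triplicates, and p-values measure the spread between these samples.

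The respiratory complexes sit in the inner mitochondrial membrane. Complex I takes electrons from NADH, complex II takes them from succinate, and both hand them to ubiquinone. Complex III passes them on to cytochrome c, and complex V, the ATP synthase, uses the proton gradient built on the way to make ATP. Most subunits are encoded in the nucleus, and dividing lymphoid precursors rely on this machinery together with glycolysis.

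Levels are the authors' deposited log2 values per probe set, so a difference of 1 is a doubling. Levels of different genes come from different probes and were not set against each other. Hdac7 itself read 9.06, 9.48 and 7.31 on wild types 1, 2 and 3 and 9.95, 9.54 and 9.27 on the arrays labelled HDAC7 deficient, so it was not lower where the label says deficient. Which exons were deleted is not known here, so these probes do not check the labels, and directions below are those of the labels. The pro-B genes Vpreb1 (9.97 to 11.53), Dntt (7.37 to 10.64) and Pax5 (7.78 to 10.28) were well expressed on all arrays. Genes of myeloid precursors were also bright, with Mpo at 9.92 to 11.98, Elane at 7.65 to 11.50 and Lyz2 at 10.75 to 11.31. The summed signal of 8 neutrophil genes was 13.55 to 14.05 in wild type and 13.76 to 14.34 in HDAC7 deficient (log2), that of 15 pro-B genes was 13.28 to 14.29 and 13.79 to 14.43, and that of 4 genes of plasmacytoid dendritic cells was 8.63 to 11.55 and 11.52 to 12.22. The sum of 6 macrophage and monocyte genes was 11.34 to 11.42 in wild type and 11.44 to 11.89 in HDAC7 deficient, and of 8 marker lists this alone had groups that did not overlap. The separation was narrow, with 11.42 on wild type 1 and 11.44 on HDAC7 deficient 1. HDAC7 deficient 2 and 3 had 11.89 and 11.77. The part of such cells in the results was not tested. In a sorted bulk sample, fewer cells of a type and less RNA per cell cannot be told apart.

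Wild type 3 stood apart from the other arrays. The interquartile range of its values was 1.72, against 2.27 to 2.93 on the others. The Actb probe set at the 3′ end exceeded the middle one by 1.69 there and by 0.16 to 0.26 elsewhere. A separate division ran across the groups. Xist, the RNA of the inactive X chromosome, was high on wild type 3 and HDAC7 deficient 2 and 3 (8.51 to 11.40) and low on the other 3 arrays (4.87 to 5.38), and the mean of the hybridisation spike-in controls was 9.67 to 10.52 on the former and 8.28 to 8.82 on the latter. Changes are therefore given with all arrays and without wild type 3.

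Respiratory complex genes were strongly expressed and close to level on 5 arrays, and much lower on wild type 3. The median of the 70 genes was 10.01, 10.13 and 7.85 on wild types 1, 2 and 3, and 10.07, 9.85 and 9.75 on HDAC7 deficient 1, 2 and 3. The direction of the comparison differed with and without that array. With all 6 arrays 63 of 70 genes were higher in HDAC7 deficient and 7 lower, with a median change of 0.50 (log2, HDAC7 deficient minus wild type), and without wild type 3 the same comparison had 13 higher and 57 lower, with a median of -0.12. With quantile normalization of the 6 arrays 46 were higher and 24 lower. Over all 17097 genes the medians were -0.03 and -0.05. Over the 4274 genes in the brightest 25% by mean level, which held 62 of the 70, they were 0.56 and 0.06. Of these 4274 genes 3828 were higher with all arrays and 2560 without wild type 3. Of all 17097 genes 8212 and 7383 were higher.

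No respiratory gene passed a limma adjusted p of 0.05, with adjusted p-values of 0.377 to 0.966 with all arrays. None passed at an unadjusted p under 0.05 either. Over all genes the share past the adjusted threshold was 0%, and 12.7% had an unadjusted p under 0.05. Without wild type 3 no member passed (limma adjusted p 0.345 to 0.997) and 1 had an unadjusted p under 0.05, against 0% and 14% of all genes. With the Xist and spike-in division as a block 10 of 70 had an unadjusted p under 0.05, against 42.6% of all genes, and none passed after adjustment (smallest limma adjusted p 0.0947). In that fit wild type 3 is the only wild-type array on the Xist-high side.

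**Figure D1:**
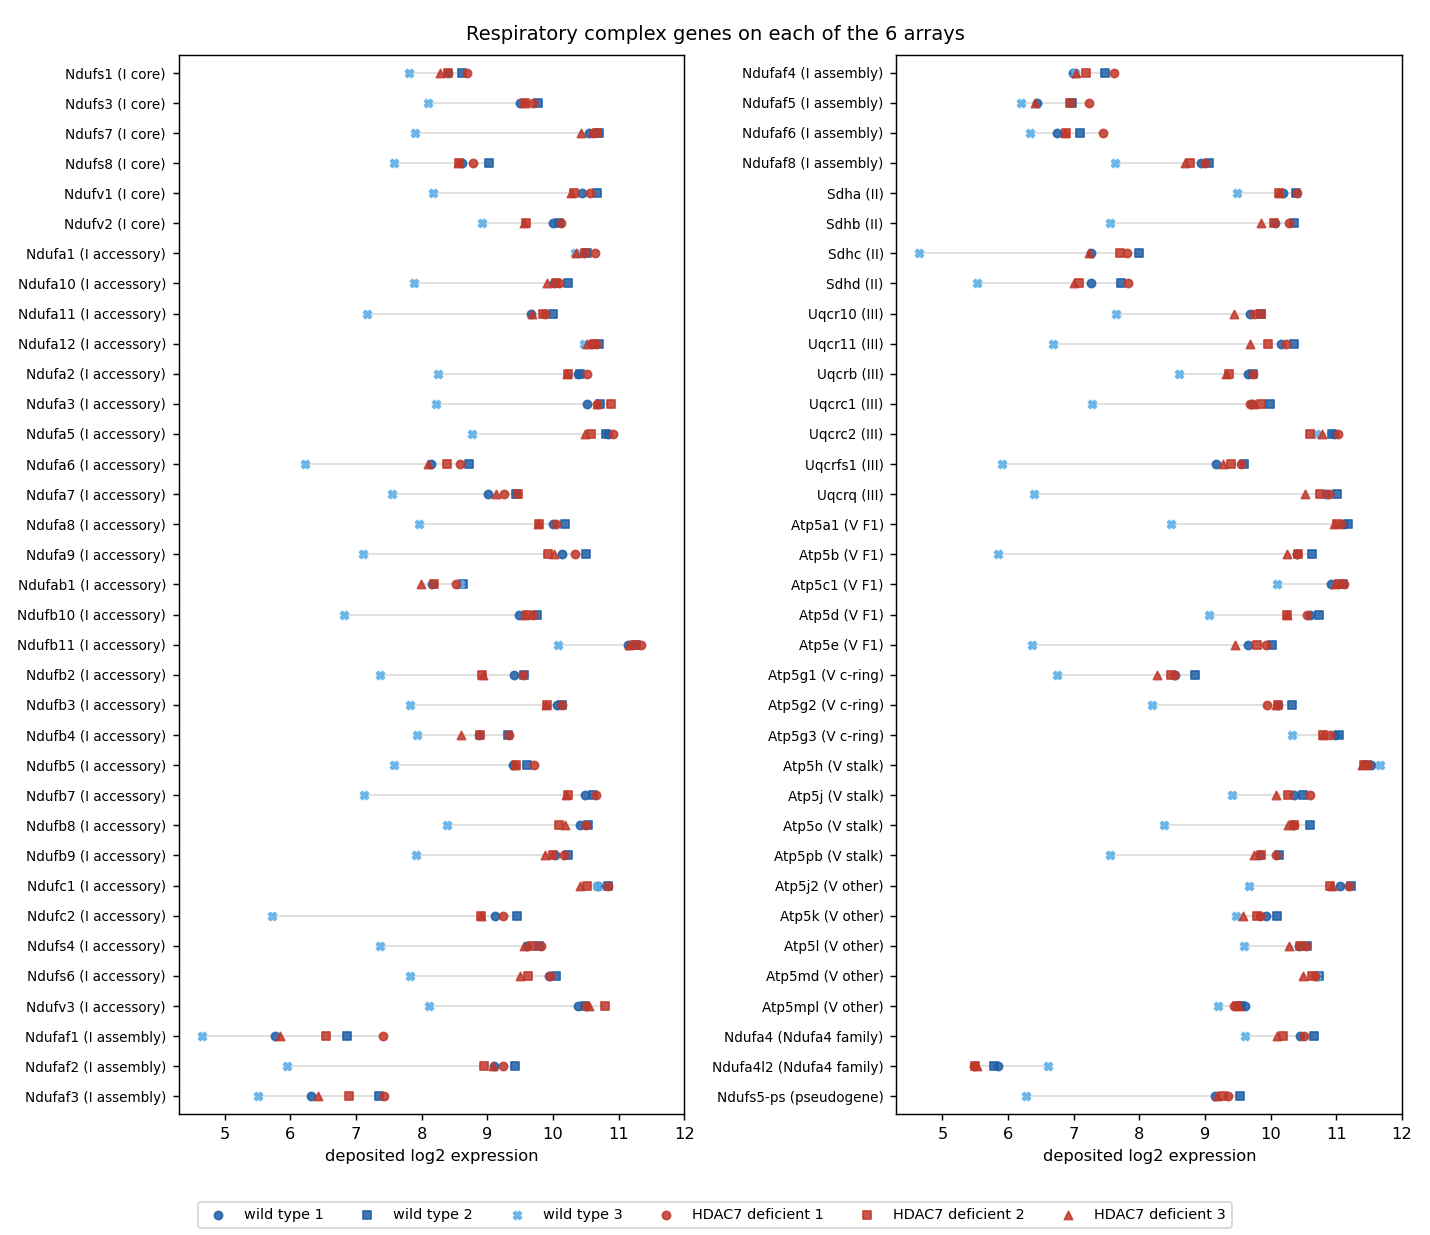
Deposited log2 expression (x axis) of the 70 respiratory complex genes (rows, with complex and role in brackets) on each of the 6 arrays, blue for wild type and red for HDAC7 deficient; the grey line joins the lowest and the highest array. Wild type 3 (light blue crosses) is the lowest array for 63 genes, and the other 5 arrays lie within a median range of 0.41 of each other.

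Groups overlapped for nearly all members. With all arrays the 3 HDAC7-deficient values lay above the 3 wild-type values for 1 of 70 genes, where all genes gave 9.45%, and below them for 2 of 70, where all genes gave 16.8%. The gene above was Ndufv3, and those below were Ndufa4l2 and Atp5md. Across the 5 arrays other than wild type 3 the members varied little. The range of a gene over these arrays had a median of 0.41, with 0.14 as the smallest and 1.65 as the largest, against a median of 0.52 in the brightest 25% of genes and 0.56 over all genes.

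Complex I is the largest complex, and its core subunits carry the flavin and the iron-sulfur clusters. All 6 core genes measured were higher in HDAC7 deficient with all arrays (median 0.36) and all 6 were lower without wild type 3 (median -0.12). Ndufs7, which holds the last cluster before ubiquinone, read 10.54, 10.70 and 7.89 in wild type and 10.61, 10.66 and 10.42 in HDAC7 deficient. Wild type 3 was low, the other 5 values overlapped between the groups, and the change was 0.85, or -0.05 without that array. Ndufv2, of the NADH-oxidising part, read 10.00, 10.10 and 8.92 in wild type and 10.12, 9.59 and 9.56 in HDAC7 deficient. Here HDAC7 deficient 2 and 3 lay below HDAC7 deficient 1 and wild types 1 and 2, and the change was 0.08 ± 0.42 (SE, limma adjusted p = 0.896) or -0.30 ± 0.19 without wild type 3 (limma adjusted p = 0.502). Ndufs1, Ndufs3, Ndufs8 and Ndufv1 had changes of 0.18 to 0.62, or -0.19 to -0.02 without that array.

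The accessory subunits surround the core and are needed for its assembly and stability. Of 26 genes 24 were higher with all arrays (median 0.63) and 20 lower without wild type 3 (median -0.11). Ndufv3, an accessory subunit of the NADH-oxidising part, read 10.38, 10.48 and 8.12 in wild type and 10.51, 10.79 and 10.54 in HDAC7 deficient. Its groups did not overlap, but its lowest HDAC7-deficient value lay only just above wild type 2, and the change of 0.95 ± 0.65 (limma adjusted p = 0.417) was 0.18 ± 0.12 without wild type 3 (limma adjusted p = 0.507). The accessory subunit Ndufa3 read 10.52, 10.72 and 8.22 in wild type and 10.67, 10.88 and 10.67 in HDAC7 deficient, and Ndufb10 of the membrane arm had group means of 8.69 ± 1.63 and 9.63 ± 0.06 (SD, n = 3 each). Their changes of 0.92 and 0.94 were 0.12 and 0.00 with that array left out (limma adjusted p = 0.650 and 0.997).

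A few accessory subunits were nearly as high on wild type 3 as elsewhere in their brightest probe set. Ndufa12 read 10.59, 10.70 and 10.47 in wild type and 10.65, 10.63 and 10.53 in HDAC7 deficient, a change of 0.02 ± 0.27, or -0.04 without wild type 3. Its second probe set differed, with a gap of -1.17 on wild type 3 and a change of 0.28, and the mean over its probe sets gave 0.40. Ndufa1, which is X-linked, read 10.48, 10.52 and 10.33 in wild type and 10.64, 10.49 and 10.36 in HDAC7 deficient, a change of 0.05 ± 0.27. For both genes the Xist-high and Xist-low arrays overlapped, and with quantile normalization the changes were -0.19 and -0.16. Ndufb11, the other X-linked member, read 11.14, 11.27 and 10.08 against 11.34, 11.24 and 11.16. It was lower on wild type 3, and without that array the changes of Ndufa1 and Ndufb11 were -0.00 and 0.04 (limma adjusted p = 0.993 and 0.843).

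The Ndufaf assembly factors build complex I and are not part of the finished enzyme. All 7 were higher with all arrays (median 0.34), and 5 of 7 remained above 0 without wild type 3 (median 0.08). HDAC7 deficient 2 and 3, averaged, lay below the mean of wild types 1 and 2 for all 7 (median -0.12). They also lay below HDAC7 deficient 1 for all 7 (median -0.56), so the changes above 0 rest on HDAC7 deficient 1. Ndufaf1, which helps to build the membrane arm, read 5.76, 6.87 and 4.65 in wild type and 7.41, 6.54 and 5.84 in HDAC7 deficient. Its range of 1.65 over the 5 arrays was the widest of the 70 genes, its groups overlapped, and the change was 0.84 ± 0.62 (limma adjusted p = 0.437) or 0.28 ± 0.48 without wild type 3 (0.813). Ndufaf6 read 6.75, 7.10 and 6.34 in wild type and 7.45, 6.89 and 6.86 in HDAC7 deficient, a change of 0.34, or 0.14 without that array. Ndufaf2, a late-acting chaperone, had 9.10, 9.43 and 5.95 against 9.24, 8.95 and 9.09. Ndufaf4, an early-acting factor, had 6.99, 7.47 and 7.03 against 7.62, 7.19 and 7.04. Wild type 3 differed from the mean of wild types 1 and 2 by -3.31 in Ndufaf2 and by -0.20 in Ndufaf4. Ndufaf8, the partner of Ndufaf5, had a change of 0.28 ± 0.44, or -0.18 without that array. Within the Xist-low arrays HDAC7 deficient 1 lay above the mean of wild types 1 and 2 for 6 of the 7 assembly factors, by a median of 0.53, against 0.06 for complex I subunits, and this rests on 1 HDAC7-deficient array. Ndufaf8, counted among the 6, was level (0.00). The 8 members outside the brightest 25% of genes, which include most of the assembly factors, had 7 above and a median of 0.46.

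Complex II is succinate dehydrogenase, the enzyme shared by the respiratory chain and the tricarboxylic acid cycle. Sdha, the flavoprotein subunit, read 10.19, 10.38 and 9.48 in wild type and 10.40, 10.12 and 10.12 in HDAC7 deficient. Sdhb, the iron-sulfur subunit, read 10.06, 10.35 and 7.55 against 10.27, 10.04 and 9.85. Sdhc, a membrane anchor, read 7.27, 7.999 and 4.65 against 7.81, 7.71 and 7.23, and its partner anchor Sdhd read 7.26, 7.72 and 5.52 against 7.82, 7.08 and 6.998. In all 4 genes wild type 3 was the lowest array and the other values of the groups overlapped. The changes were 0.19 to 0.94 (limma adjusted p 0.474 to 0.704), and -0.19 to -0.05 without wild type 3 (limma adjusted p 0.700 to 0.954).

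Complex III had the largest gap on wild type 3 among complexes I, II, III and V, with a median of -2.58 against the mean of wild types 1 and 2. Uqcrq, a small subunit near the ubiquinone site, read 10.85, 11.005 and 6.39 in wild type and 10.89, 10.75 and 10.53 in HDAC7 deficient. Uqcrfs1, the Rieske iron-sulfur protein, read 9.17, 9.59 and 5.90 against 9.54, 9.40 and 9.27. Uqcrc1, a core protein, read 9.72, 9.99 and 7.28 against 9.69, 9.84 and 9.75. Their changes of 1.31 ± 1.18, 1.18 ± 0.92 and 0.77 ± 0.71 (limma adjusted p = 0.487, 0.450 and 0.494) were -0.20, 0.02 and -0.09 without wild type 3. The other core protein, Uqcrc2, was nearly level in its brightest probe set, with 10.96, 10.93 and 10.69 in wild type and 11.02, 10.59 and 10.78 in HDAC7 deficient, a change of -0.06, or -0.15 without wild type 3. Its second probe set was not level, with 9.40, 9.61 and 7.80 in wild type, a gap of -1.70 on wild type 3, and a change of 0.48. Uqcrb, with 9.65, 9.72 and 8.60 against 9.73, 9.37 and 9.31, had a change of 0.15, or -0.21 without wild type 3.

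**Figure D2:**
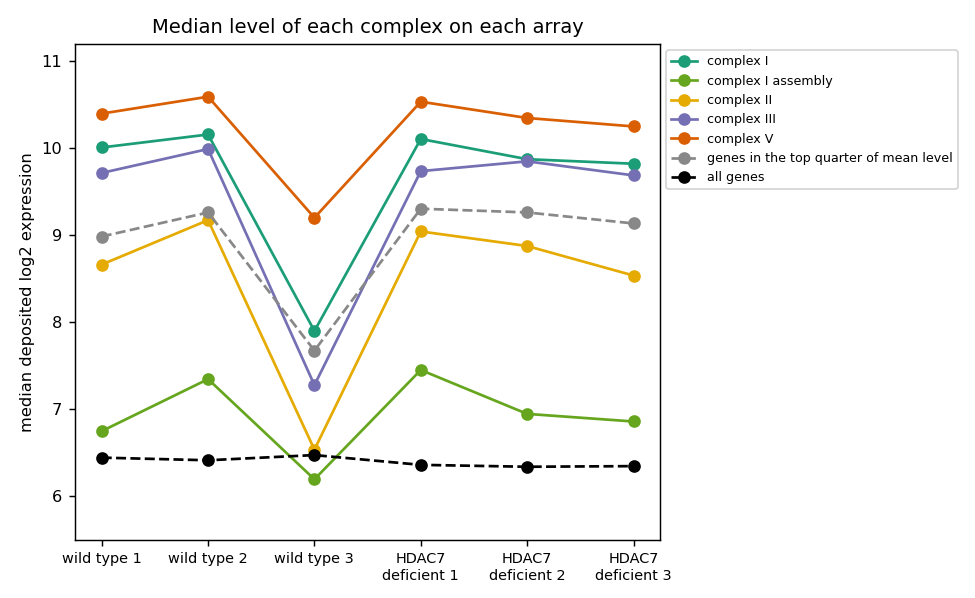
Median deposited log2 expression (y axis) of the genes of each complex on each array (x axis), with all genes and the brightest 25% of genes by mean level as dashed lines; heights of different lines come from different probes and are not comparable. Complexes I, II, III and V are lowest on wild type 3, at 7.90, 6.54, 7.28 and 9.20. The brightest 25% of genes are also lowest there, at 7.67 against 8.99 to 9.31 elsewhere. The median of all genes stays between 6.34 and 6.47.

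Complex V, the ATP synthase, had 14 of 17 genes higher with all arrays (median 0.34) and 16 of 17 lower without wild type 3 (median -0.13). Atp5b, the catalytic beta subunit, read 10.40, 10.63 and 5.84 in wild type and 10.40, 10.42 and 10.25 in HDAC7 deficient. This was the largest gap of any member on wild type 3, -4.67 against the mean of wild types 1 and 2, and its change of 1.40 ± 1.21 (limma adjusted p = 0.476) was -0.16 ± 0.12 without that array (0.570). Atp5e, the epsilon subunit of the central stalk, read 9.65, 10.02 and 6.36 against 9.93, 9.79 and 9.45. Atp5pb, subunit b of the peripheral stalk, read 9.84, 10.13 and 7.55 against 10.09, 9.85 and 9.75. The changes of Atp5e and Atp5pb were 1.05 and 0.72, or -0.11 and -0.09 without wild type 3. Other ATP synthase genes were close to level on wild type 3. Atp5h, subunit d of the peripheral stalk, read 11.53, 11.46 and 11.67 in wild type and 11.49, 11.42 and 11.38 in HDAC7 deficient, and Atp5mpl, a small proteolipid of the membrane part, read 9.60, 9.54 and 9.20 against 9.44, 9.49 and 9.51. Their changes were -0.12 and 0.03, or -0.06 and -0.09 without wild type 3, and a second probe set of Atp5h had a gap of -0.56 on that array. The gap on wild type 3 ran from -4.67 to 0.17 within this complex.

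Atp5g1, Atp5g2 and Atp5g3 encode the same mature c subunit of the rotating ring, from separate loci, and differ in their import sequences. Their promoters, the 250 bases before the RefSeq start site in GRCm38.p6, are shown because these 3 genes make 1 product and can be compared by their upstream sequence, together with that of the complex I gene Ndufs6. The windows are chr11:96075632-96075881 (Atp5g1), chr15:102671048-102671297 (Atp5g2), chr2:73911327-73911576 (Atp5g3) and chr13:73328483-73328732 (Ndufs6), all on the minus strand. Capitals mark a match to the motif of NRF1 (GCGC, any base, then TGCGC), a transcription factor of respiratory genes.
Atp5g1: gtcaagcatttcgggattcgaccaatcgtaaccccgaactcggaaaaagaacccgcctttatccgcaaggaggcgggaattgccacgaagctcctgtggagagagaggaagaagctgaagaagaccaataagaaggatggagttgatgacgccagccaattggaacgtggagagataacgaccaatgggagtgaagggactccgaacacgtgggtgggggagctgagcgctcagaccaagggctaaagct
Atp5g2: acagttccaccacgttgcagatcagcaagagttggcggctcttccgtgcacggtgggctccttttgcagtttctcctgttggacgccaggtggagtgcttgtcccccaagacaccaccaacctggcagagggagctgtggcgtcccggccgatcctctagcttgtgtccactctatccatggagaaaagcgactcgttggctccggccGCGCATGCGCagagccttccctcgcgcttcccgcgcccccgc
Atp5g3: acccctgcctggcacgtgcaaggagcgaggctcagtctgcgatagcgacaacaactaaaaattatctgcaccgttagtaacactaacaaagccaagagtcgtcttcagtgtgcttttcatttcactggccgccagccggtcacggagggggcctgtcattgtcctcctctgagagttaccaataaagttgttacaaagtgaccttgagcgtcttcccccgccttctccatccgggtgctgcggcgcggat
Ndufs6: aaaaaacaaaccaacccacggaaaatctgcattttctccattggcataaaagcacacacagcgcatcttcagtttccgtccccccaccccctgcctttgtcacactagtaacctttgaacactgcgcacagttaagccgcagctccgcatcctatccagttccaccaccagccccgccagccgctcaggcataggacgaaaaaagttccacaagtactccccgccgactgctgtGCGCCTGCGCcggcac
The match began 42 bases before the start in Atp5g2 and 16 bases before it in Ndufs6, and these letters were not in the windows of Atp5g1 and Atp5g3. Promoters were matched for 58 of the 70 genes, and 12 of the 58 (20.7%) held the NRF1 motif on either strand, against 4.23% of the 27025 genes with a promoter in the table. The motif AAGATGGCG of YY1 was in 1 of 58 (1.72%, against 0.71%) and CCGGAAGT, bound by ETS factors, in 2 of 58 (3.45%, against 3.23%), on either strand. A match is a description of the letters and not a site of binding.

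In their brightest probe sets the c-ring genes were all lower on wild type 3, by a gap of -1.95 in Atp5g1, -2.03 in Atp5g2 and -0.69 in Atp5g3. A second, dim probe set of Atp5g1 was higher there, with a gap of 1.01. Its change was -0.60, or -0.27 without wild type 3. Atp5g1 read 8.55, 8.85 and 6.75 in wild type and 8.53, 8.48 and 8.27 in HDAC7 deficient. Atp5g2, with the NRF1 match, read 10.11, 10.32 and 8.18 against 9.94, 10.11 and 10.08. Atp5g3 read 10.98, 11.04 and 10.32 against 10.91, 10.80 and 10.80. On the 5 arrays other than wild type 3, the HDAC7-deficient values of Atp5g1 and Atp5g3 lay below both wild-type values, and those of Atp5g2 overlapped them. With all arrays the changes of Atp5g1, Atp5g2 and Atp5g3 were 0.38, 0.51 and 0.05. Without wild type 3 they had the opposite sign, at -0.27 ± 0.21, -0.16 ± 0.13 and -0.18 ± 0.09 (limma adjusted p = 0.567, 0.583 and 0.404). Over all members with a promoter, the median change with all arrays was 0.38 for those with the NRF1 motif and 0.62 for those without. Without wild type 3 it was -0.16 for those with the NRF1 motif and -0.12 for those without.

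Without wild type 3, small differences lay in 1 direction for several ATP synthase genes. On these 5 arrays the HDAC7-deficient values lay below both wild-type values for 8 of 70 members, where all genes gave 19%, and above both for 1, Ndufv3, where all genes gave 11.8%. Of the 8, 7 were ATP synthase genes (7 of 17, 41.2%), and the remaining gene was Ndufa4l2. The 7 were Atp5a1, Atp5d, Atp5g1, Atp5g3, Atp5k, Atp5md and Atp5mpl, singled out, where outside the naming rule, after their values were seen, and in the brightest 25% of genes the share was 7.28%. The separations were narrow. The closest was Atp5g1, with 8.53 on HDAC7 deficient 1 and 8.55 on wild type 1. The widest was Atp5k, with 9.83 and 9.92 on the same arrays. Atp5d, the delta subunit of the central stalk, read 10.60 and 10.73 on wild types 1 and 2 and 10.56, 10.25 and 10.25 in HDAC7 deficient, with 9.06 on wild type 3. Its change of -0.31 ± 0.13 was the member with an unadjusted p under 0.05 in that fit (limma adjusted p = 0.345), and its second probe set gave 0.00. With all arrays its change was 0.22. With the Xist and spike-in division as a block and wild type 3 left out it was -0.11. That fit sets HDAC7 deficient 1 alone against wild types 1 and 2. The 7 changes ran from -0.31 to -0.09, limma adjusted p-values from 0.345 to 0.798, and only Atp5md was also below all 3 wild-type values.

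**Figure D3:**
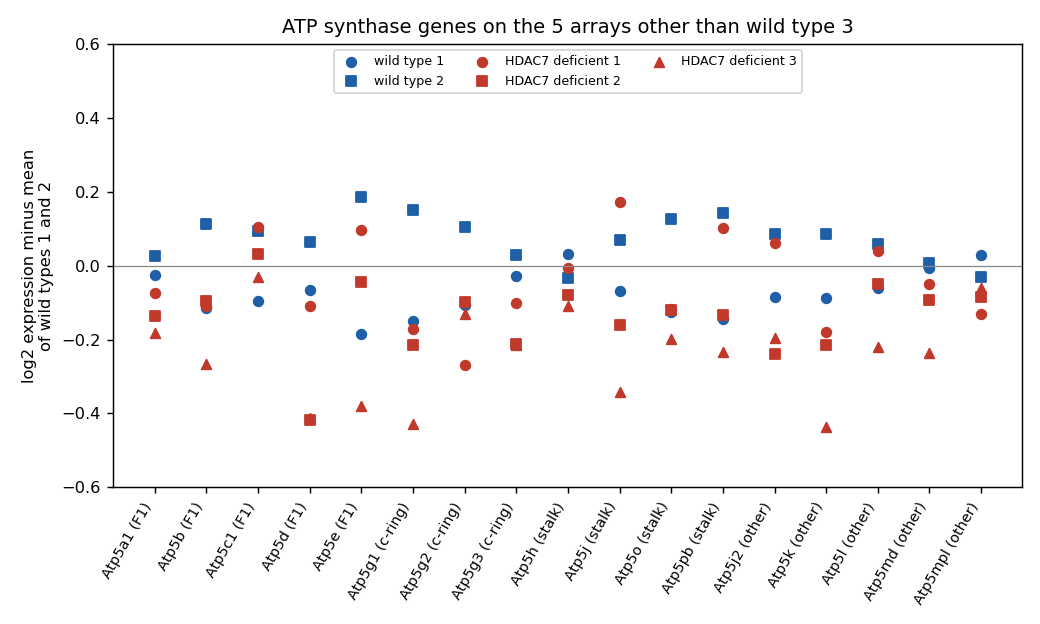
Log2 expression of the 17 ATP synthase genes (x axis, with the part of the enzyme in brackets) on 5 arrays, as the difference from the mean of wild types 1 and 2 (y axis); each point is 1 array and wild type 3 is left out. In 7 genes, Atp5d among them, all 3 red points lie below both blue points; their changes run from -0.31 to -0.09.

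Among the HDAC7-deficient arrays the members also differed. The mean of HDAC7 deficient 2 and 3 lay below HDAC7 deficient 1 for 63 of 70 genes, by a median of -0.27, against 62.8% of the brightest 25% of genes (median -0.10) and 46.3% of all genes (0.03). The same 2 arrays lay below the mean of wild types 1 and 2 for 66 of 70 genes, by a median of -0.18, against 2076 of 4274 of the brightest 25% of genes (median 0.01) and 10226 of 17097 of all genes (median -0.07). HDAC7 deficient 2 and 3 are Xist-high arrays with brighter spike-ins, and the others of this comparison are Xist-low. These 2 arrays also had a lower pro-B marker sum, 13.79 and 13.805 against 14.13 to 14.43 on the Xist-low arrays. Their neutrophil sum was higher, at 14.31 and 14.34 against 13.76 to 14.05. The macrophage, T cell, plasmacytoid and stromal sums were higher too, and the erythroid and NK cell sums overlapped. The part of cell types in these differences was not tested. Within the Xist-low arrays HDAC7 deficient 1 lay above the mean of wild types 1 and 2 for 46 of 70 genes and below for 24, a median of 0.05. Of the brightest 25% of genes 3085 of 4274 lay above (median 0.14), and of all genes 7849 of 17097 (median -0.04). Within the Xist-high arrays the median of the members was 1.74, with wild type 3 as the only wild-type array. Genotype and division cannot be told apart for HDAC7 deficient 2 and 3 once wild type 3 is left out.

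Ndufa4 and Ndufa4l2 are named after complex I, although Ndufa4 is now placed in complex IV and Ndufa4l2 is a relative induced by low oxygen. Ndufa4l2 read 5.85, 5.79 and 6.60 in wild type and 5.48, 5.49 and 5.53 in HDAC7 deficient. It was dim, its groups did not overlap, and unlike most members it was highest on wild type 3, with a change of -0.58 ± 0.25 (limma adjusted p = 0.377), or -0.32 ± 0.15 without that array (0.394). Ndufa4 read 10.44, 10.66 and 9.61 against 10.50, 10.19 and 10.09, a change of 0.03 ± 0.37 that turned to -0.29 ± 0.15 without wild type 3 (limma adjusted p = 0.418). The probe set annotated to the pseudogene Ndufs5-ps read 9.15, 9.54 and 6.27 against 9.35, 9.27 and 9.18, a change of 0.95, or -0.08 without wild type 3. It is among the 13 members, itself included, whose probe set names end in s_at or x_at. Such probe sets may also detect other copies. Ndufs5 is not among the members, and whether this signal comes from the pseudogene cannot be told here.

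**Figure D4:**
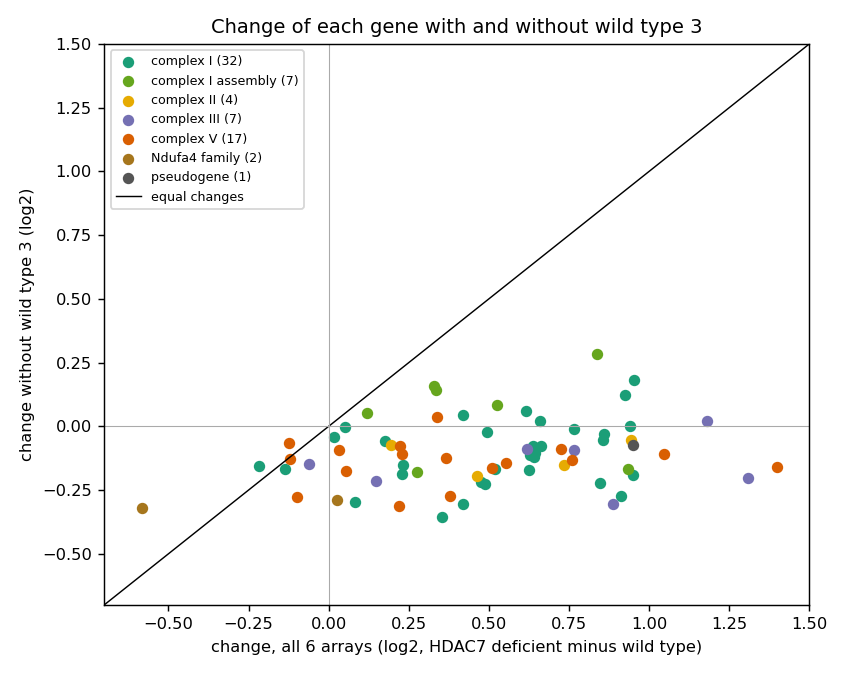
Log2 change of each of the 70 genes with all 6 arrays (x axis) against its change without wild type 3 (y axis), coloured by complex; the line marks equal changes. Changes of -0.58 to 1.40 with all arrays become -0.36 to 0.28 without wild type 3, and 50 genes change sign.

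Probe sets of the same gene disagreed widely on wild type 3. The 33 members with more than 1 probe set had 82 in all. The difference between wild type 3 and the mean of wild types 1 and 2 spread over a gene's probe sets by a median of 1.32 and at most 5.21, while the change without wild type 3 spread by a median of 0.15 and at most 1.67. These measures are unlike, since the former rests on a single array and the latter on group means. The spread on other single arrays was not computed. Sdha shows this with its 2 brightest probe sets, which read 9.48 and 7.61 on wild type 3 but 10.12 and 10.45 on HDAC7 deficient 2. In Ndufs8 the gap on wild type 3 was -1.25, -3.49, -3.46 and 0.01 over 4 probe sets, against changes of -0.19 to -0.08 on the other arrays. The second probe set of Uqcrq differed from the brightest, with 5.46, 5.64 and 6.22 in wild type and 6.68, 7.37 and 7.02 in HDAC7 deficient, a change of 1.25, or 1.47 without wild type 3. Where the probes lie along the transcripts was not analysed here.

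Other genes of mitochondrial and energy metabolism also differed with and without wild type 3. None of 128 genes in 9 further lists passed limma's adjusted p of 0.05, with or without wild type 3. Of the 128, 2 and 8 had an unadjusted limma p under 0.05, against 12.7% and 14% of all genes. Subunits of complex IV had 11 of 15 genes higher (median 0.27) and 9 of 15 lower without wild type 3 (median -0.12). Its testis-type subunit gene Cox6b2 read 6.66, 6.94 and 6.17 in wild type and 7.45, 7.56 and 7.57 in HDAC7 deficient, a change of 0.94 ± 0.27 that was 0.73 without that array (limma adjusted p = 0.377 and 0.247), and Cox8b had changes of -0.40 and -0.24. Genes of complex IV assembly (median 0.46, or 0.02 without wild type 3), of cytochrome c and ubiquinone (0.28, or -0.10), of the tricarboxylic acid cycle (0.23, or -0.09), of pyruvate entry (0.33, or -0.02) and of mitochondrial import and carriers (0.38, or -0.12) were also higher at the median with all arrays. Glycolysis genes had 14 of 16 higher (0.38) and 8 of 16 without that array (0.03).

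Regulators of mitochondrial biogenesis had 9 of 14 genes higher (median 0.11) and 10 of 14 lower without wild type 3 (median -0.12). Tfam, the factor that packages and transcribes mitochondrial DNA, read 9.03, 9.16 and 8.99 in wild type and 8.89, 8.51 and 8.36 in HDAC7 deficient. All 3 HDAC7-deficient values were lower, and wild type 3 was not low for this gene, with a change of -0.47 ± 0.29 (limma adjusted p = 0.401), or -0.50 without that array (0.355). Lyrm7, an assembly factor that holds the Rieske protein of complex III, read 6.38, 6.05 and 7.06 against 5.78, 5.71 and 5.65, a change of -0.79 ± 0.28 (limma adjusted p = 0.377), or -0.50 without wild type 3 (0.313). Gabpa, an ETS factor of respiratory promoters, had a change of 0.45 ± 0.27, or 0.28 without that array. The cycle enzyme Idh3a had -0.52 ± 0.29, or -0.35, and Surf1, of complex IV assembly, had 1.35 ± 0.91 with all arrays and 0.21 without wild type 3.

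**Figure D5:**
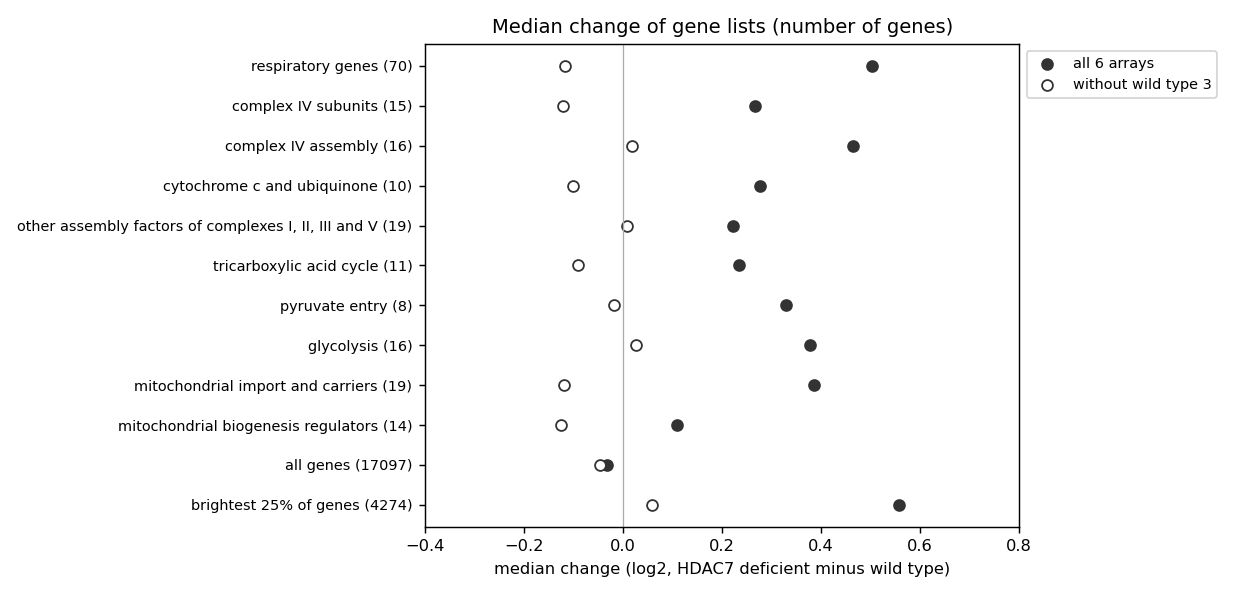
Median log2 change (x axis) of the 70 respiratory genes, of 9 lists of other mitochondrial and metabolic genes, of all genes and of the brightest 25% of genes (rows, with the number of genes), with all 6 arrays (filled) and without wild type 3 (open). With all arrays the 10 gene lists lie above 0 and all genes at -0.03, and without wild type 3 the medians lie between -0.12 and 0.06.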

How the data were processed

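Expression was measured on Affymetrix mouse arrays after whole transcriptome amplification of sorted cells, per the labels' protocols. Values are log2, as the authors deposited them; their normalization is not given in the sources used here. That the scale is log2 was judged from the values. Of 45141 probe sets, 104 controls were set aside and 28898 had 1 symbol in the platform annotation. Symbols were updated through Entrez numbers to RefSeq (GRCm38.p6) for 28689 of them. Each gene took its probe set of highest mean, with no filter on dim genes. The fit used limma 3.58.1 (R 4.3.3, intensity trend, two-sided, Benjamini-Hochberg adjustment over 17097 genes), and its code was run on simulated data. Those data had the same noise on every array, so they do not cover an array set apart like wild type 3. Precision is limited by the number of arrays; with 3 against 3, exact permutation p-values stop at 0.1. Members and lists were chosen with earlier results of these data known. Per complex, the text names the 3 genes of smallest and 2 of largest p, all of complex II, the c-ring and X-linked genes, and members without overlap and with an unadjusted p under 0.05 when wild type 3 is left out; other members named were chosen after their values were seen. Up to 2 genes per further list are named. Alternatives were leaving out arrays, blocks, other normalizations, probe set choices, a filter on dim genes, no trend and array weights.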

Additional observations from a re-analysis of the deposited data

How the results depend on the processing

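The count of respiratory genes past limma's adjusted p of 0.05 was 0 with all arrays, with each array left out, and under every other setting except array weights, which gave 14 (7 higher), or 4 by the gene-by-gene method, added after the data were seen. The weights did not converge for the first (wild type 1 had a weight of 40506), and they called 10932 and 8452 of all genes. With the first weights Atp5d and Ndufa4 were called lower, by -0.31 and -0.22, against 0.22 and 0.03 with equal weights. Neither was called by the gene-by-gene method. Ndufa3, Ndufv3, Ndufaf1 and Ndufa4l2 were called with the first weights in the direction they had with equal weights. Leaving out 1 array at a time, the median change ran from -0.12 to 0.89 for all members, from -0.11 to 1.0005 for complex I, -0.11 to 1.08 for complex II, -0.15 to 1.26 for complex III and -0.13 to 0.54 for complex V, the lowest each time without wild type 3, where 50 of 70 genes changed sign. Within the Xist-high arrays, the medians were 1.74, 1.83, 1.96, 2.52 and 1.19 in the same order. With the division as a block and wild type 3 left out they were 0.05, 0.06, 0.14, -0.03 and -0.07. That fit sets HDAC7 deficient 1 alone against wild types 1 and 2. Quantile normalization gave 0.21 for all members and turned 17 genes; centring on array medians gave 0.64 and moved the median of all genes from -0.03 to 0.10. The labels do not call same-numbered samples pairs, and the numbers were not taken as pairs. Deviations of same-numbered samples from their group means correlated at 0.0964, 0.208 and 0.476, and those of other pairings at -0.578 to 0.357. With 3 arrays per group and wild type 3 apart, these correlations cannot decide on pairing. With the replicate number as a block 0 members passed. The median of 0.50 could not move there, since each number holds 1 array of each group.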
